A study of Homo sapiens with 15 samples.

Results

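U937 is an established human leukaemia cell line of the monocytic lineage. The libraries described here are 3 of U937 cells given 10 nM prexasertib together with 350 nM LSN622666 and 3 of U937 cells given diluent, chosen by their treatment labels alone, 6 of the 15 RNA-seq libraries of the study. Every culture was held for 24 h in 5 µM Q-VD-OPh, a broad caspase inhibitor that limits apoptosis, so the diluent libraries carry it too. Prexasertib inhibits the checkpoint kinase CHK1, and LSN622666 is known here by its code name only. A further 3 U937 libraries given 10 nM prexasertib without LSN622666 were used to sort the changes, and the other 6 libraries, from ML1 cells given diluent or prexasertib, entered the same fit. The submitters' stated interest was in transcription factors that might act on TNF. No group received LSN622666 alone, so a change seen with both compounds cannot be assigned to either one or to their joint use. The labels number the replicates 1 to 3 without saying that they were separate cultures, and the p-values then measure the spread between these libraries, which may be technical.

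As background, CHK1 restrains CDK activity when DNA replication is disturbed, and its inhibition lets replication origins fire in excess and lets cells enter mitosis early. TNF signals through the receptor TNFRSF1A to NF-kB, whose targets include its own feedback genes TNFAIP3, which encodes the ubiquitin-editing protein A20, and NFKB2, which encodes the p100 precursor. Genes of DNA replication and mitosis are transcribed in waves that E2F factors and the CCAAT-box and CHR-binding complexes drive, so their RNA in a bulk sample moves with the share of cells in each phase. In these bulk samples, fewer cells in a state and less RNA per cell cannot be told apart.

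The 6 libraries held 49011222 to 81764532 assigned reads, and 17243 of 26485 listed genes were tested. Levels are CPM, the reads of a gene relative to the library total, scaled by library composition. A gene was called changed at an adjusted p under 0.05 by the edgeR quasi-likelihood test, with p-values adjusted by the Benjamini-Hochberg method across the 17243 genes. Log2 CPM correlated across genes at 0.988 to 0.991 between diluent replicates and at 0.985 to 0.991 between replicates with both compounds. Replicate 1 with both compounds stood apart in size. Over the 1895 called genes, its change against the diluent mean had a slope of 1.22 when set against the mean of replicates 2 and 3, compared with 0.894 and 0.788 for those replicates set against their own counterparts. The myeloid character of the cells was visible in LYZ, which encodes lysozyme, at a mean of 179 CPM with diluent and 174 CPM with both compounds, and in CD68 at 52.4 and 61.3 CPM. CD14 was near absent at 0.24 and 0.667 CPM. These genes were taken from a list of 32 monocyte and macrophage markers. Of that list 7 lay under 1 CPM in every U937 library, 1 of them, MSR1, with no read. Of 32 markers of other cell types, 22 lay under 1 CPM in every U937 library, 6 of them with no read. The summed level of the list ran from 262 to 291 CPM with diluent and from 209 to 236 CPM with both compounds. The markers without a read were CD3D, CD3E, MS4A1, PF4, EPCAM and KRT19. NKG7, at 173 and 132 CPM, was the most abundant of the list.

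With both compounds, 1186 genes were higher than with diluent (6.88% of those tested) and 709 were lower (4.11%), 11% in either direction. The 2 directions differed in size: 682 of the higher genes and 14 of the lower genes changed at least 2-fold, while the median log2 difference of all tested genes was 0.00. Of the higher genes 1172, and of the lower genes 702, had no overlap between the 3 libraries of each group. Of all tested genes 17.8% lay wholly above and 17.9% wholly below diluent. The calls were made on the same libraries, so this separation is not separate support for them. The genes that rose were mostly scarce at the start, with a median diluent level of 2.83 CPM, whereas those that fell had a median of 78.8 CPM, and the median of all tested genes was 14.3 CPM. The balance of the directions moved with the scaling, since upper-quartile factors gave 1528 higher and 236 lower genes and shifted the median of all genes to 0.11 on the log2 scale. The counts also rested on single libraries. Without replicate 1 with both compounds 425 genes were higher and 179 lower, without diluent replicate 2 the counts were 463 and 247, and without diluent replicate 3 they were 557 and 295. The count of lower genes was 391 without replicate 3 with both compounds and 1275 without prexasertib replicate 2. In every setting that left the threshold and the GC content untouched, 261 of the higher and 123 of the lower genes were called again, and no gene was called in the opposite direction.

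**Figure D1:**
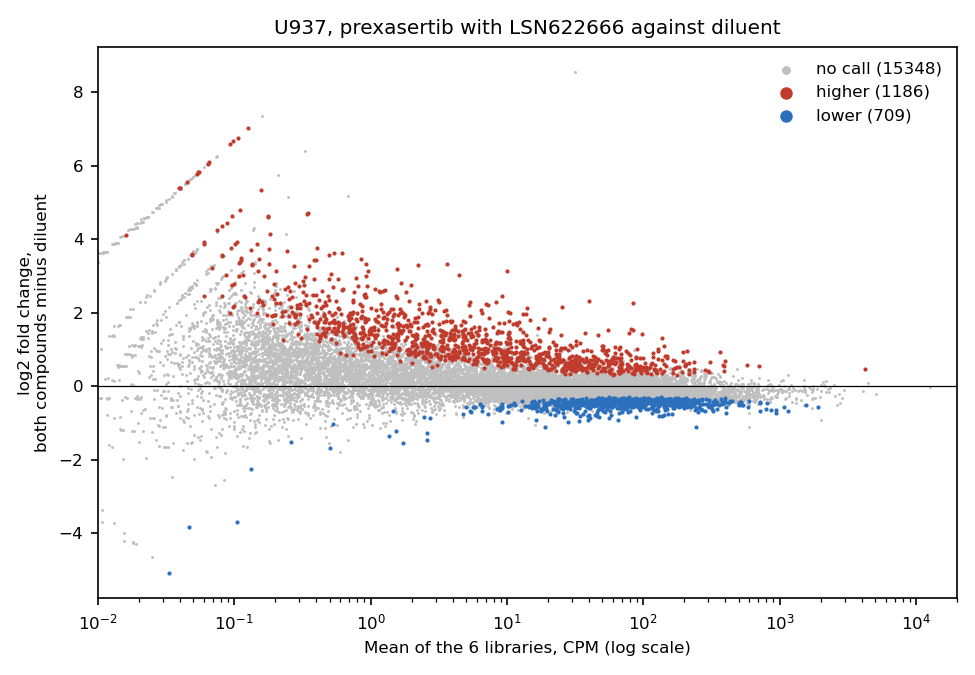
Each point is a tested gene, with its mean level over the 6 libraries in CPM on a log axis that starts at 0.01 and its log2 fold change with both compounds against diluent. The 1186 higher genes spread over low levels and large changes, and the 709 lower genes lie in a narrow band of small changes at higher levels.

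The same cells with prexasertib alone separated changes that stayed under both compounds from changes that became visible only in that comparison. Prexasertib alone raised 3160 genes (18.3%) and lowered 2209 (12.8%), 31.1% in either direction, against the same 3 diluent libraries, so the lists are not independent and their overlap is given as a count only. A gene was said to stay changed when it was called in the same direction in both comparisons, and to become changed when it was called with both compounds and not with prexasertib alone. On that definition 457 genes stayed higher (2.65% of those tested), 694 became higher (4.02%), 286 stayed lower (1.66%) and 401 became lower (2.33%). The 457 that stayed higher were 38.5% of the genes higher with both compounds and 14.5% of those higher with prexasertib alone. The 286 that stayed lower were 40.3% and 12.9% of the corresponding lists. Without diluent replicate 2, diluent replicate 3 or replicate 1 with both compounds, the number that stayed higher was 146, 183 or 185 and the number that became higher was 308, 370 or 231. The number that stayed lower was 99, 106 or 87 and the number that became lower 147, 186 or 87 without the same libraries in turn. Without replicate 2 with both compounds 284 stayed higher and 148 stayed lower, without replicate 3 of that group 192 became lower, and without prexasertib replicate 2 940 became lower.

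Most of what prexasertib alone changed had no call once LSN622666 was added. Of the 3160 genes higher with prexasertib, 2681 had no call with both compounds against diluent, and 1897 of those were lower with both compounds than with prexasertib in the direct comparison of the treated groups. Of the 2209 genes lower with prexasertib, 1888 had no call with both compounds, and 685 of those were higher than with prexasertib. In that direct comparison 2048 genes (11.9%) were higher and 2947 (17.1%) lower with both compounds than with prexasertib alone, 29% in either direction. A fit to the U937 libraries only gave 1994 and 2447. With the replicate block described below added to that fit, the counts were 3630 and 3474. SLC39A11, which encodes a zinc transporter, stood at 64, 54.9 and 51.8 CPM with diluent, at 28.4, 18.4 and 29.6 CPM with prexasertib and at 47.7, 39.9 and 50.5 CPM with both compounds. Its libraries with both compounds lay between the other groups, with a log2 fold change against diluent of -0.31 ± 0.15 (SE, adjusted p = 0.203, edgeR quasi-likelihood test). ATF3, a stress-induced bZIP factor, stood at 6.29, 5.51 and 6.33 CPM with diluent, at 132, 319 and 104 CPM with prexasertib and at 9.29, 26.2 and 9.32 CPM with both compounds, with no call against diluent (1.31 ± 0.44, adjusted p = 0.068). The 3 libraries with both compounds all lay above the 3 diluent libraries for ATF3 and far below the 3 with prexasertib.

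The 457 genes that stayed higher had a median log2 fold change of 1.48 with both compounds and 1.74 with prexasertib alone, and in the direct comparison 308 had no call, 124 were lower and 25 were higher with both compounds. The 286 that stayed lower had medians of -0.48 and -0.47, and 276 of them had no call in the direct comparison, 6 being lower and 4 higher. A missing call does not show that the levels were equal. The median diluent level was 0.908 CPM for the 457 that stayed higher and 94.7 CPM for the 286 that stayed lower. A gene near absent with diluent passes the filter on low counts only through another group and has little room to fall. The sizes of the rises and falls are therefore not directly comparable. Genes that became changed had small median changes with prexasertib alone: the 694 that became higher had a median of 1.00 with both compounds and 0.10 with prexasertib, and the 401 that became lower had medians of -0.46 and -0.13. Of the 694, 525 were higher with both compounds than with prexasertib in the direct comparison, and of the 401, 215 were lower. The remaining 169 and 186 genes had no call there, and for 77 of the 694 the adjusted p with prexasertib alone was under 0.1. The number that became higher and lay above prexasertib was 193 without replicate 1 with both compounds, 270 without diluent replicate 2 and 305 without diluent replicate 3. The number that became lower and lay below prexasertib was 56, 98 and 122 without the same libraries, and 79 without replicate 3 with both compounds. Same-numbered libraries of the prexasertib and combination groups deviated together. In a fit to the U937 libraries only these counts were 470 and 76, and with the replicate number added as a block they were 995 and 392.

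TNXB, COL7A1, MYH3, OVGP1, ADCY10P1 and PRG2 were among the genes of at least 5 CPM with the largest rises that stayed. TNXB to PRG2 here, the genes that became higher in the next paragraph, and the lower genes from CCNA2 to BMI1 kept their calls against diluent in every alternative that left the thresholds untouched, the GC correction described below included. TNXB, which encodes the matrix protein tenascin-X, lies on chromosome 6, 32041153 to 32115334, minus strand, GRCh38. It was at 2.86, 1.08 and 2.12 CPM with diluent, at 14.3, 15.5 and 5.28 CPM with prexasertib and at 30.8, 12.5 and 10.6 CPM with both compounds. Every library with both compounds lay above every diluent library, replicate 1 being the highest, and the log2 fold change was 3.14 ± 0.50 (adjusted p = 0.0016, edgeR quasi-likelihood test). Without that replicate it was 2.47. COL7A1, the gene of the anchoring-fibril collagen, lies on chromosome 3, 48564073 to 48595267, minus strand. It was at 14.3, 12 and 13.7 CPM with diluent, at 36.6, 48.6 and 26.9 CPM with prexasertib and at 86.9, 63.3 and 48.7 CPM with both compounds. It rose by 2.31 ± 0.25 against diluent (adjusted p = 7.3e-05). MYH3, an embryonic skeletal muscle myosin, rose from a mean of 1.81 to 8.92 CPM (2.30 ± 0.32, adjusted p = 0.00054), and OVGP1, an oviduct glycoprotein, from 2.41 to 11.5 CPM (2.25 ± 0.29, adjusted p = 0.00033). ADCY10P1, a transcribed pseudogene of an adenylyl cyclase, was at 5.62, 4.43 and 5.43 CPM with diluent, at 27.4, 41.6 and 19 CPM with prexasertib and at 26.6, 20.2 and 21.5 CPM with both compounds. The 2 treated groups overlapped for ADCY10P1, which had no call in the direct comparison (-0.37 ± 0.22, adjusted p = 0.22). PRG2, which encodes the eosinophil granule major basic protein, rose by 2.08 ± 0.26 (adjusted p = 0.00026). Of its exonic bases 43% overlap another annotated gene and the library kit does not mark strand, so its reads cannot be assigned with certainty.

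Among genes that became higher, DNHD1 (chromosome 11, 6497260 to 6593758, plus strand), a gene for a protein with a dynein heavy chain domain, was at 33, 21 and 32.5 CPM with diluent, at 40.5, 38.6 and 28.5 CPM with prexasertib and at 201, 101 and 115 CPM with both compounds. The libraries without LSN622666 overlapped one another, and all 3 with it lay above them. The log2 fold change was 2.27 ± 0.24 against diluent (adjusted p = 7.3e-05) and 1.96 ± 0.24 against prexasertib (adjusted p = 3.2e-05, edgeR quasi-likelihood test). SPON2, which encodes a secreted matrix protein of the spondin family, lies on chromosome 4, 1166932 to 1208962, minus strand. It was at 11, 6.62 and 10.5 CPM with diluent, at 12.9, 4.44 and 6.44 CPM with prexasertib and at 59.3, 30.7 and 34.7 CPM with both compounds. It was higher by 2.15 ± 0.35 than with diluent (adjusted p = 0.0015) and by 2.39 ± 0.35 than with prexasertib (adjusted p = 0.00016). MAPK8IP2, a scaffold of the JNK cascade, lies on chromosome 22, 50600685 to 50613981, plus strand. It was at 5.22, 3.29 and 3.66 CPM with diluent, at 5.5, 4.06 and 3.24 CPM with prexasertib and at 22.3, 13.5 and 13.4 CPM with both compounds. Its difference was 2.01 ± 0.24 from diluent (adjusted p = 0.00021) and 1.94 ± 0.24 from prexasertib (adjusted p = 3.9e-05). VWA7, a von Willebrand factor A domain gene, had means of 2.56, 3.77 and 11.9 CPM with diluent, prexasertib and both compounds. In the same order ZDHHC11, which encodes a palmitoyltransferase, had means of 1.88, 1.85 and 8.73 CPM. KLKB1, the gene of plasma prekallikrein, had means of 2.27, 2.99 and 8.5 CPM. All of them were called against diluent (2.22 ± 0.22, 2.21 ± 0.38 and 1.91 ± 0.32) and against prexasertib. YJEFN3 rose from a mean of 5.36 to 21.1 CPM with both compounds (1.98 ± 0.20, adjusted p = 4.7e-05), with 38.5% of its exonic bases shared with neighbouring annotated genes.

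**Figure D2:**
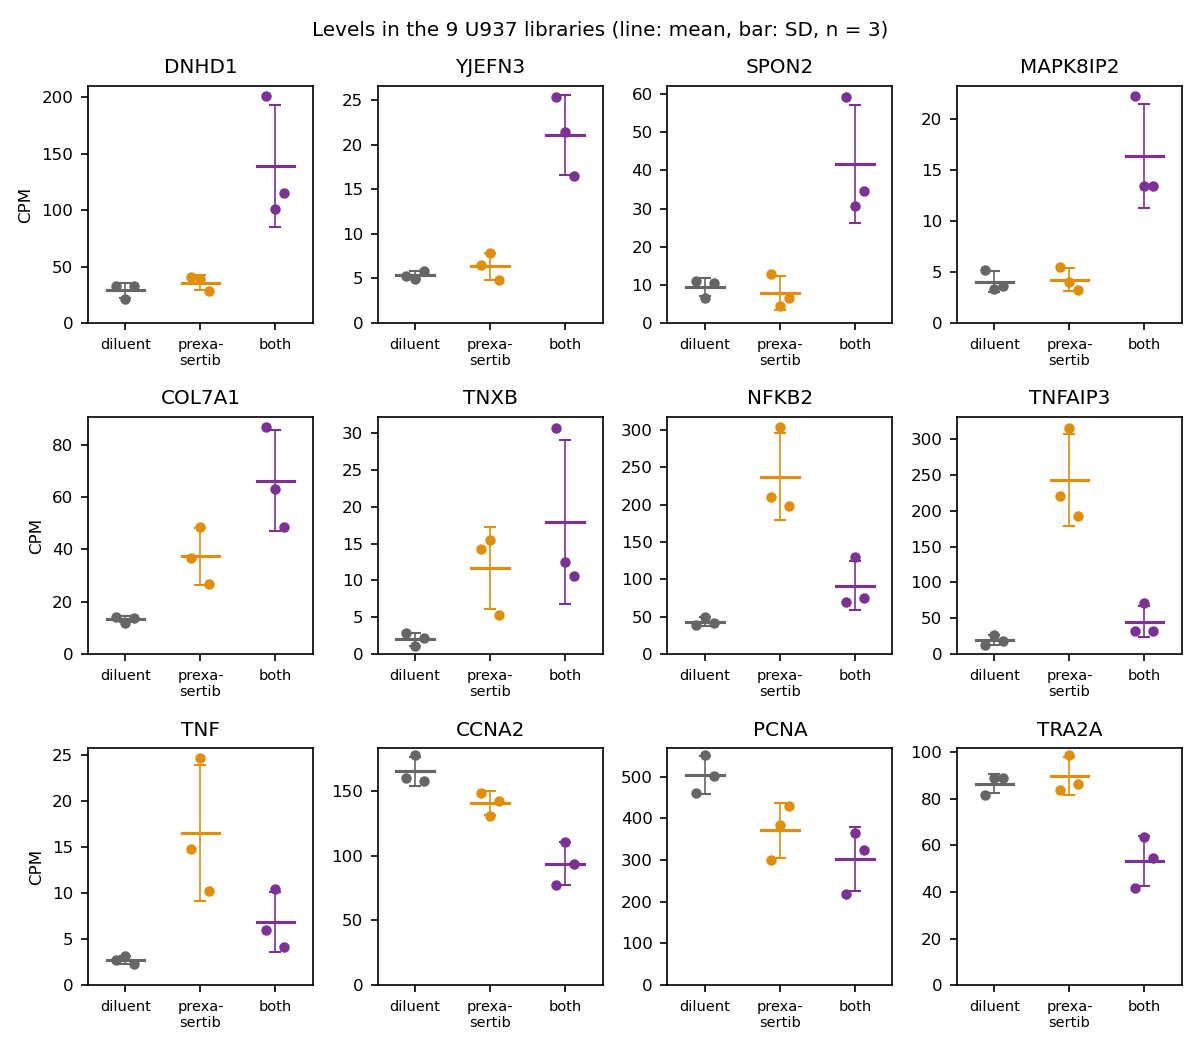
Points are the CPM of single libraries on linear axes that start at 0, lines are means and bars SD over the 3 libraries of each U937 group, for 12 genes. DNHD1, YJEFN3, SPON2 and MAPK8IP2 are high with both compounds and low in the other groups, and COL7A1 and TNXB are raised with prexasertib too. NFKB2, TNFAIP3 and TNF have their highest means with prexasertib alone, and for TNF the treated groups overlap. CCNA2, PCNA and TRA2A have their lowest means with both compounds.

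A further 57 genes were called in opposite directions in the 2 comparisons with diluent, 35 of them lower with prexasertib and higher with both compounds and 22 the reverse. PIM1, a survival kinase gene picked after its values were seen, was at 138, 110 and 99.9 CPM with diluent, at 296, 291 and 235 CPM with prexasertib and at 87.3, 87.5 and 61.9 CPM with both compounds. Its call against diluent (-0.56 ± 0.16, adjusted p = 0.0325) ended without replicate 3 with both compounds (adjusted p = 0.12) and when diluent replicate 1 (0.095) or 2 (0.060) was left out, and in fits to the U937 libraries only (0.089).

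CCNA2, the gene of cyclin A2, the S-phase and G2 partner of CDK2 and CDK1, lies on chromosome 4, 121816444 to 121823933, minus strand. It was at 160, 178 and 158 CPM with diluent, at 148, 130 and 142 CPM with prexasertib and at 77.4, 111 and 93.4 CPM with both compounds. The libraries with both compounds lay below all others, and the log2 fold change was -0.82 ± 0.12 against diluent (adjusted p = 0.00081) and -0.58 ± 0.12 against prexasertib (adjusted p = 0.0020, edgeR quasi-likelihood test). PCNA, the sliding clamp of DNA polymerases, lies on chromosome 20, 5114953 to 5126626, minus strand. It was at 461, 552 and 501 CPM with diluent, at 300.4, 383 and 429 CPM with prexasertib and at 218, 366 and 324 CPM with both compounds. The treated groups overlapped, and PCNA fell by 0.74 ± 0.16 on the log2 scale against diluent (adjusted p = 0.0086). CDKN2C, which encodes the CDK4 and CDK6 inhibitor p18, fell from a mean of 45 to 26.9 CPM (-0.74 ± 0.16, adjusted p = 0.0081) with 49.7 CPM under prexasertib. SPC25, a kinetochore subunit, fell by 0.95 ± 0.14 on the log2 scale (adjusted p = 0.00064), and DEPDC1B, a regulator of adhesion at mitotic entry, by 0.80 ± 0.13 (adjusted p = 0.0015).

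PRTN3, the granule protease proteinase 3 of myeloid precursors, stood at 328, 363 and 309 CPM with diluent, at 195, 164 and 256 CPM with prexasertib and at 141, 134 and 189 CPM with both compounds. It fell by 1.11 ± 0.20 against diluent on the log2 scale (adjusted p = 0.0034, edgeR quasi-likelihood test), and the treated groups overlapped. MRPL1, a protein of the mitochondrial ribosome, changed by -1.10 ± 0.21 and COX11, a cytochrome oxidase assembly factor, by -0.83 ± 0.14 (adjusted p = 0.0044 and 0.0015), and 14.9% of the exonic bases of COX11 overlap other genes. CTDSPL2, a phosphatase-domain gene, stood at 71.4, 75.4 and 69.3 CPM with diluent, at 78.2, 86.7 and 65.1 CPM with prexasertib and at 38.5, 41.8 and 37.6 CPM with both compounds. It was lower than with prexasertib as well (-0.96 ± 0.12, adjusted p = 3.6e-05). VPS36, an ESCRT-II sorting subunit, had means of 113, 95.4 and 63.7 CPM with diluent, prexasertib and both compounds (-0.58 ± 0.11 against prexasertib, adjusted p = 0.00069). PTAFR, the receptor for platelet-activating factor, fell from a mean of 12.1 to 6.15 CPM against 15.3 CPM with prexasertib. COMMD10 and BMI1, the latter a subunit of a Polycomb ubiquitin ligase that shares 23.3% of its exonic bases with a readthrough gene, fell under both treatments and had no call in the direct comparison.

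Gene lists covering the pathways of the study were read against the whole transcriptome. They were compiled with earlier results of these data known, and counts of members are given beside the 6.88% of all tested genes called higher and the 4.11% called lower. Of all tested genes 49.2% had a fitted level below diluent. Of 40 tested genes of E2F targets and DNA replication, 37 had a level below diluent by the fitted value, 9 were called lower (22.5%), and the median log2 fold change was -0.36. Of 36 G2 and mitosis genes 35 lay below diluent, 9 were called lower (25%), and the median was -0.38. Most members also lay below diluent in other lists, among them 29 of 30 respiratory chain genes, 26 of 29 stress response genes, 25 of 29 MYC targets and ribosome biogenesis genes and 20 of 23 heat shock genes. Abundant genes leaned the same way: among the 3972 annotated genes of the highest diluent level (at least 61.8 CPM) the median log2 fold change was -0.18 and 10.3% were called lower. Scarce genes leaned the other way: among the 3973 of the lowest diluent level (at most 0.948 CPM) the median was 0.72 and 8.99% were called higher. Among those above that level and up to 16.9 CPM the median was 0.12 and 11.3% were called higher. In the lowest of 4 bins of transcript GC content, described below, 9.99% of genes were called lower and the median was -0.16. The parts of expression level and of GC content in the list counts were not tested. With prexasertib alone the E2F list had 2 higher and 6 lower members, against 18.3% and 12.8% of all tested genes, and the G2 and mitosis list had 18 higher members. In the direct comparison 34 of the 36 G2 and mitosis genes were lower with both compounds than with prexasertib, against 17.1% of all tested genes. The libraries of the groups did not overlap for 23 of the 36, or 63.9%, and for 42.5% of the E2F list, against 17.9% of all tested genes. The numbers of calls rested on single libraries, whereas the medians did not change sign in any alternative. The E2F list had 1 lower member without replicate 1 with both compounds, 4 without replicate 3 and 18 without replicate 2 of that group, 2 without diluent replicate 2 and 5 without diluent replicate 3. It had 16 or 17 without prexasertib replicate 1 or 2, and its medians ran from -0.50 to -0.24. The G2 and mitosis list had 1, 3 and 17 lower members without replicate 1, 3 or 2 with both compounds, 3 without diluent replicate 2 and 14 without prexasertib replicate 1 or 2, with medians from -0.52 to -0.28.

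KIF11, the motor that separates spindle poles, lies on chromosome 10, 92593286 to 92655395, plus strand. It was at 139, 142 and 129 CPM with diluent, at 168, 164 and 127 CPM with prexasertib and at 77, 110 and 83.2 CPM with both compounds. The libraries with both compounds lay below all others, with a log2 fold change of -0.60 ± 0.14 (adjusted p = 0.011, edgeR quasi-likelihood test). The KIF11 call ended without replicate 1 with both compounds (-0.53, adjusted p = 0.0501). CDK1, the kinase of mitotic entry, was at 104, 105 and 104 CPM with diluent, at 150, 133 and 125 CPM with prexasertib and at 56.1, 88 and 71.2 CPM with both compounds. CDK1 was higher than diluent with prexasertib, just under the threshold (0.38 ± 0.14, adjusted p = 0.0489, edgeR quasi-likelihood test). It was lower than diluent with both compounds (-0.54 ± 0.14, adjusted p = 0.023). The latter call ended on leaving out replicate 1 (adjusted p = 0.088) or 3 (0.057) with both compounds or diluent replicate 2 (0.055), and with the GC correction (0.12). CHEK1, the gene of the kinase that prexasertib inhibits, was at 63.9, 64 and 59.8 CPM with diluent and at 38.7, 53 and 45 CPM with both compounds. The groups did not overlap, but the CHEK1 call (-0.46 ± 0.14, adjusted p = 0.039) ended without replicate 1 (0.14) or 3 (0.086) with both compounds and on leaving out diluent replicate 1, 2 or 3 (0.060, 0.089 and 0.058), and with the GC correction (0.18). CDK2, the kinase named in the title of the study, was at 59.2, 62.6 and 60.2 CPM with diluent and at 42.2, 52 and 50.2 CPM with both compounds, with no call (-0.33 ± 0.12, adjusted p = 0.086). Of 33 checkpoint and CDK regulators 3 were higher and 4 lower, and of 27 homologous recombination and Fanconi genes 3 were lower, with medians of -0.28 and -0.27. Lower members of the checkpoint list numbered 2 without replicate 1 with both compounds or diluent replicate 2, 1 without replicate 3 and 7 without replicate 2 with both compounds, and 9 without prexasertib replicate 2. Its 3 higher members became 1 without any 1 library with both compounds or diluent replicate 1, and 0 without diluent replicate 2 or 3. The recombination list had 1 lower member without replicate 1 with both compounds and 6 without prexasertib replicate 1 or 2.

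The TNF and NF-kB targets had a smaller median rise with both compounds than with prexasertib alone. Of 26 tested targets 6 were called higher (23.1%), all of which were higher with prexasertib too, and the median log2 fold change was 0.53. The corresponding values with prexasertib alone were 23 higher, 1 lower and a median of 2.15, and 24 of the 26 were lower with both compounds than with prexasertib in the direct comparison. NFKB2 (chromosome 10, 102394110 to 102402529, plus strand) was at 38.9, 49.9 and 41.1 CPM with diluent, at 210, 304 and 197 CPM with prexasertib and at 69.7, 129 and 75.1 CPM with both compounds. The 3 groups did not overlap, and NFKB2 was higher than with diluent by 1.08 ± 0.21 (adjusted p = 0.0048) and lower than with prexasertib by -1.38 ± 0.21 (adjusted p = 0.00021, edgeR quasi-likelihood test). TNFAIP3 (chromosome 6, 137867188 to 137883312, plus strand) was at 13.1, 26.8 and 17.9 CPM with diluent, at 221, 316 and 192 CPM with prexasertib and at 32.7, 70.6 and 32.3 CPM with both compounds. Again the groups did not overlap, but the call against diluent (1.23 ± 0.29, adjusted p = 0.014) ended without replicate 2 with both compounds (0.76, adjusted p = 0.054) and without diluent replicate 3 (adjusted p = 0.058). The count of 6 was 2 without replicate 1 or 2 with both compounds or diluent replicate 2, and 1 without diluent replicate 3, and the median was 0.27 without replicate 2 with both compounds. TNF itself (chromosome 6, 31575567 to 31578336, plus strand) was at 2.73, 3.11 and 2.27 CPM with diluent, at 14.7, 24.6 and 10.2 CPM with prexasertib and at 5.97, 10.4 and 4.17 CPM with both compounds. Its groups with diluent and both compounds lay apart, but the call (1.34 ± 0.40, adjusted p = 0.044) ended without any 1 of the 3 diluent libraries or replicate 1 or 2 with both compounds, at adjusted p = 0.099 to 0.15. The call also ended without prexasertib replicate 1 (adjusted p = 0.062), without the filter on low counts (0.12) and with the GC correction (0.056). For TNF the treated groups overlapped, with a direct difference of -1.27 ± 0.37 (adjusted p = 0.020, edgeR quasi-likelihood test). That direct call ended without replicate 1 or 3 with both compounds, without prexasertib replicate 2 and without the filter on low counts.

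Promoters of 4 genes described above, NFKB2, TNFAIP3, CCNA2 and KIF11, are shown as examples, picked because they hold letters matching motifs of NF-kB or of cell-cycle factors. They are the 200 bases before a RefSeq start on GRCh38.p14, 5′ to 3′ on the strand of the gene. For NFKB2 it is 1 of 3 listed starts, picked because its bases held the most motif matches. In NFKB2 and TNFAIP3 capitals mark matches to the kappaB consensus and to no cell-cycle motif, so that the CCAAT of NFKB2 stays in lower case. In CCNA2 and KIF11 capitals mark matches to the cAMP response element TGACGTCA, to CCAAT and to the CHR motif TTTGAA. Each motif was read on both strands. The windows are chr10:102394378-102394577 for NFKB2, chr6:137867059-137867258 for TNFAIP3, chr4:121823884-121824083 (minus strand) for CCNA2 and chr10:92592930-92593129 for KIF11.
NFKB2: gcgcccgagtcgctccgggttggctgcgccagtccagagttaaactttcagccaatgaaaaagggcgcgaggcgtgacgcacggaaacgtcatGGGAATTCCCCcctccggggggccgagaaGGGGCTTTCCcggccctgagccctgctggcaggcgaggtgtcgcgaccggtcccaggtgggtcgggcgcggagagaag
TNFAIP3: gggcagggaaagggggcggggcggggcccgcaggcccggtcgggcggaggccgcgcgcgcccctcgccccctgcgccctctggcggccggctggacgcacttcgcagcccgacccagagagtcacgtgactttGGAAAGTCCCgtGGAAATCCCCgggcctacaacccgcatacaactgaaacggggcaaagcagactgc
CCNA2: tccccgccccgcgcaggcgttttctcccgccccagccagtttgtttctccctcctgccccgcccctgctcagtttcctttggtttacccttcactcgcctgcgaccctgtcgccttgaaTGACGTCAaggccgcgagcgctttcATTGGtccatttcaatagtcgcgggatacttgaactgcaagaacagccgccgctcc
KIF11: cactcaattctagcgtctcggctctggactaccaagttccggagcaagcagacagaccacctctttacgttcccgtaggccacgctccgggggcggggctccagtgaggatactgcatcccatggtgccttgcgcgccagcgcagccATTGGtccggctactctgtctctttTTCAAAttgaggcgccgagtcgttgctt
The kappaB matches of TNFAIP3 lie at -67 to -58 and -55 to -46 from the start, and those of NFKB2 at -107 to -98, -106 to -97 (overlapping) and -78 to -69. CCNA2 holds the cAMP response element at -81 to -74 and CCAAT at -56 to -52, and KIF11 holds CCAAT at -53 to -49 and CHR at -28 to -23. Over 17036 promoter windows (250 bases before to 50 after the start) of 11891 matched tested genes, 34.2% held CCAAT, 11.2% CHR, 3.13% an E2F motif (TTTGGCGC or TTTCCCGC) and 13.3% kappaB. Among the 462 windows of genes that became lower the shares were 40.9%, 14.1%, 5.63% and 11.7%. Among the 341 windows of genes that stayed lower they were 35.8%, 12.3%, 2.64% and 12.6%. Genes higher with prexasertib and without a call with both compounds had CCAAT in 38.8%, CHR in 14.2% and E2F in 2.85% of 2668 windows. Among the 605 windows of genes that became higher they were 28.9%, 5.45%, 1.32% and 17.4%, and among the 424 windows of genes that stayed higher 36.1%, 12.7%, 1.89% and 14.6%. AP-1 (TGACTCA or TGAGTCA) was found in 3.83% of all windows, in 4.72% for genes that stayed higher and in 3.80% for genes that became higher. These shares are descriptions of letters, and a short motif also matches in promoters that no factor binds. The windows differed in base composition, with a median GC content of 66.3% for genes that became higher and 61.3% for genes that stayed higher. It was 64.3% for genes that became lower, 66% for genes that stayed lower and 63.7% for all tested genes. The part of base composition in the motif shares was not tested.

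Of 27 splicing factor genes tested, 7 were called lower (25.9%), all of them without a call with prexasertib alone, 2 were called higher, and the median was -0.33. The called members, named in full, were on the lower side TRA2A, TRA2B, SRSF2, SRSF4, SRSF7, SRSF10 and HNRNPA2B1, which bind exonic or intronic splicing signals, and on the higher side CLK2 and CLK3, kinases that phosphorylate SR proteins. TRA2A (chromosome 7, 23504780 to 23532041, minus strand) was at 81.9, 88.9 and 88.9 CPM with diluent, at 83.7, 99.1 and 86.6 CPM with prexasertib and at 41.8, 63.4 and 54.6 CPM with both compounds. The libraries with both compounds lay below all others for TRA2A, which changed by -0.70 ± 0.13 against diluent (adjusted p = 0.0035) and by -0.75 ± 0.13 against prexasertib (adjusted p = 0.00050, edgeR quasi-likelihood test). CLK3 rose from a mean of 80.2 to 124 CPM (0.63 ± 0.13, adjusted p = 0.0051), with 114 CPM under prexasertib. Without replicate 1 with both compounds 2 were lower, and without diluent replicate 2 or 3 the count was 3 or 4. CLK2 lost its call on leaving out any 1 of the 6 diluent and combination libraries (adjusted p = 0.072 to 0.14) and with the GC correction (0.064). With that correction SRSF7 and SRSF10 had no call either (adjusted p = 0.056 and 0.057).

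**Figure D3:**
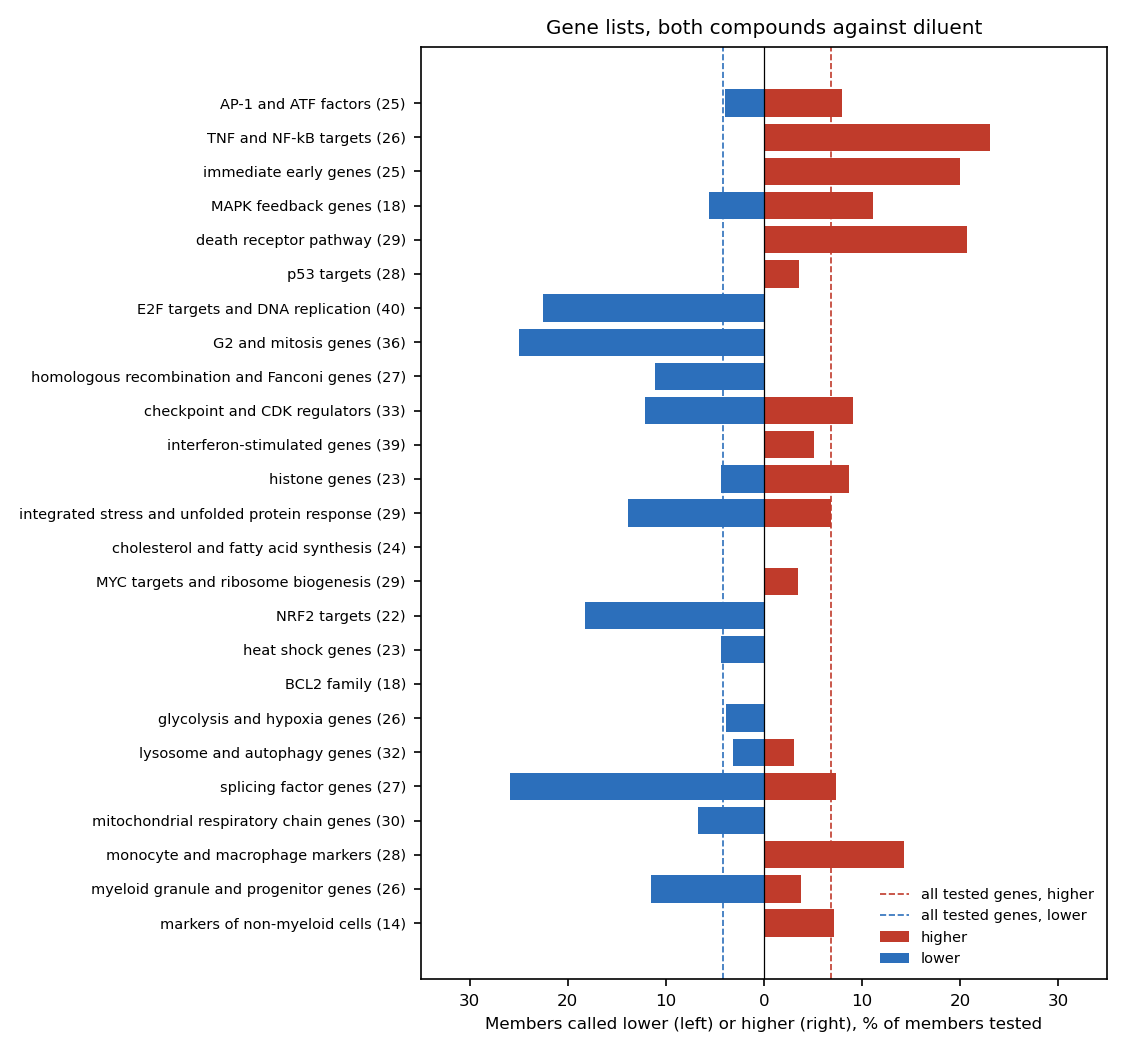
Bars give the share of tested members of each gene list (number tested in brackets) called higher to the right or lower to the left with both compounds against diluent, and dashed lines give the shares of all tested genes, 6.88% and 4.11%. The E2F, G2 and mitosis and splicing lists extend farthest to the left and the TNF and NF-kB targets farthest to the right.

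The remaining lists are given by their counts with both compounds against diluent. Immediate early genes had 5 of 25 higher and a median of 0.27, against 21 higher with prexasertib. The 5 calls fell to 2 without replicate 1 with both compounds, to 3 or 1 on leaving out diluent replicate 1 or 2, and to 0 without replicate 2 with both compounds or diluent replicate 3. AP-1 and ATF factors had 2 of 25 higher and 1 lower (15 higher with prexasertib), and MAPK feedback genes 2 of 18 higher and 1 lower (13 higher with prexasertib). In the death receptor pathway 6 of 29 were higher. LTA, a TNF family cytokine, was near absent with diluent, at 0.1, 0 and 0.128 CPM, and at 1.03, 2.33 and 0.723 CPM with prexasertib. It was at 0.612, 0.629 and 0.438 CPM with both compounds (2.86 ± 0.61 against diluent). LTA kept this call in every alternative in which it was tested. The alternatives reuse the same libraries and the diluent level is near the floor, so the kept call is not separate support. Without replicate 1 with both compounds or diluent replicate 2 the count of 6 higher members was 1, and without diluent replicate 3 it was 2. TNFRSF1A, the main TNF receptor, had no call (171, 155 and 150 CPM with diluent, 142, 123 and 137 CPM with both compounds, -0.24 ± 0.18, adjusted p = 0.40, edgeR quasi-likelihood test). Interferon-stimulated genes had 2 of 39 higher, IRF7 and IRF9, which is 5.13% against 6.88% of all tested genes. The list had a median of 0.45, and 19 members were higher with prexasertib. Of 28 p53 targets 1 was higher, GDF15, against 12 with prexasertib. The calls of the AP-1, interferon and p53 lists fell to 0 higher without replicate 1 or 2 with both compounds or diluent replicate 2 or 3, and those of the MAPK list without replicate 2 with both compounds or diluent replicate 2 or 3. They fell to 1 for AP-1 and ATF without prexasertib replicate 1, for interferon without diluent replicate 1, and for MAPK without replicate 1 with both compounds or diluent replicate 1. The single lower call fell to 0 for AP-1 and ATF without replicate 1 or 2 with both compounds or diluent replicate 1 or 2, and for MAPK without any 1 library with both compounds or diluent replicate 2 or 3. The AP-1 and ATF list had 2 lower members without prexasertib replicate 1 or 2. Without prexasertib replicate 2, 9 interferon-stimulated and 5 MAPK feedback genes were higher, and without replicate 3 with both compounds 4 AP-1 and ATF factors were. Histone genes, which have near-identical copies, had 2 of 23 higher and 1 lower, against 20 higher with prexasertib, and all 23 were lower than with prexasertib in the direct comparison. The lower histone call fell to 0 without replicate 1 or 3 with both compounds or diluent replicate 2 or 3, and became 3 without replicate 2 with both compounds or diluent replicate 1 and 2 without prexasertib replicate 1 or 2. HIST1H2AC was at 1.5, 4 and 2.99 CPM with diluent, at 63.6, 97.2 and 58 CPM with prexasertib and at 5.17, 26.3 and 9.91 CPM with both compounds.

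Of 29 genes of the integrated stress and unfolded protein response 2 were higher and 4 lower (13.8%), of 22 NRF2 targets 4 were lower (18.2%), of 23 heat shock genes 1 was lower, and of 26 glycolysis and hypoxia genes 1 was lower. The 4 NRF2 target calls fell to 0 without replicate 1 or 3 with both compounds or diluent replicate 2 or 3, and to 2 without replicate 2 with both compounds. The 4 lower calls of the stress response list fell to 0 without replicate 2 with both compounds or diluent replicate 2 or 3, to 1 without replicate 1 or 3 with both compounds and to 2 without diluent replicate 1. Its 2 higher calls, NUPR1 and PPP1R15A, fell to 0 without replicate 1 or 2 with both compounds or diluent replicate 2 or 3, and to 1 without replicate 3 with both compounds. The heat shock call, HSF2, ended without replicate 1 with both compounds or diluent replicate 2 or 3, and the glycolysis call, VEGFA, without replicate 2 or 3 with both compounds or diluent replicate 3. Without prexasertib replicate 2 the glycolysis list had 2 lower members. Libraries of the groups lay apart on the lower side for 50% of the cholesterol genes, 46.7% of the respiratory chain genes, 44.8% of the stress response genes and 36.4% of the NRF2 targets, against 17.9% of all tested genes. The edgeR test called 0 of 18 BCL2 family genes and 0 of 24 genes of cholesterol and fatty acid synthesis. At an unadjusted p under 0.05, 3 and 5 of them were lower, and DESeq2 called 2 and 3 lower. In the cholesterol list 22 of 24 fitted values lay below diluent, with a median of -0.34, and 5 were called lower without prexasertib replicate 2. Of 29 MYC targets and ribosome biogenesis genes 1 was higher, of 32 lysosome and autophagy genes 1 was higher and 1 lower, and of 30 mitochondrial respiratory chain genes 2 were lower. The MYC list call, CAD, ended without replicate 1 with both compounds or diluent replicate 1 or 3, and 4 members of that list were lower without diluent replicate 1. In the lysosome list ULK1 lost its higher call without replicate 1 with both compounds, and UVRAG lost its lower call without replicate 1 or 3 with both compounds or diluent replicate 2 or 3, while 4 were lower without prexasertib replicate 2. The 2 respiratory chain calls ended without any 1 of the 6 diluent and combination libraries, and 4 were lower without prexasertib replicate 2. Monocyte and macrophage markers had 4 of 28 higher with a median of 0.44. Among the 4 were near-absent genes, CD14 at a mean of 0.24 CPM with diluent and 0.667 CPM with both compounds, and CLEC7A at 0.132 and 0.443 CPM. CYBB, the catalytic subunit of the phagocyte NADPH oxidase, rose from 17.2, 18 and 17.1 CPM to 30.6, 39.3 and 38.6 CPM (1.05 ± 0.23, adjusted p = 0.0077, edgeR quasi-likelihood test). Without replicate 1 or 2 with both compounds or any 1 diluent library, 2 of these markers were higher, and without prexasertib replicate 2, 8 were. The summed level of the marker list was 570 to 671 CPM with diluent and 626 to 669 CPM with both compounds. Of 26 myeloid granule and progenitor genes 1 was higher and 3 lower (1 lower without replicate 1 or 2 with both compounds or any 1 diluent library), with summed levels of 4996 to 5632 CPM with diluent and 3906 to 4682 CPM with both compounds.

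The changed genes differed from the rest in base composition, a property not used to call them. Over 15889 tested genes (92.1%) matched to an annotation, the median GC content of the transcript was 49.7%, against 58.4% for genes called higher and 41.7% for genes called lower. It was 59.4% for genes that became higher, 55.3% for genes that stayed higher and 41.6% both for genes that stayed and for genes that became lower. Genes were divided into 4 equal bins by GC content. From the lowest to the highest bin the share called higher was 1.76%, 3.32%, 7.15% and 14.9%, and the share called lower was 9.99%, 4.96%, 1.66% and 0.680%. With prexasertib alone the share called lower also fell with GC content, at 16.9%, 15.6%, 11.0% and 9.74%. The share called higher with prexasertib was 18.4%, 19.1%, 19.0% and 17.0%. The median log2 difference from diluent in these bins was -0.16, -0.07, 0.04 and 0.20 with both compounds, and -0.02, -0.01, 0.01 and -0.02 with prexasertib alone. The trend was present in every library with both compounds: the highest bin exceeded the lowest by 0.36, 0.28 and 0.29 in replicates 1 to 3, against 0.02, 0.03 and -0.04 in the diluent libraries and 0.01, -0.10 and 0.08 in the prexasertib libraries. Whether it arose in the cells or in library preparation was not tested. With an offset for transcript GC content in each library, an alternative chosen after the trend was seen, 764 genes were higher and 381 lower.

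**Figure D4:**
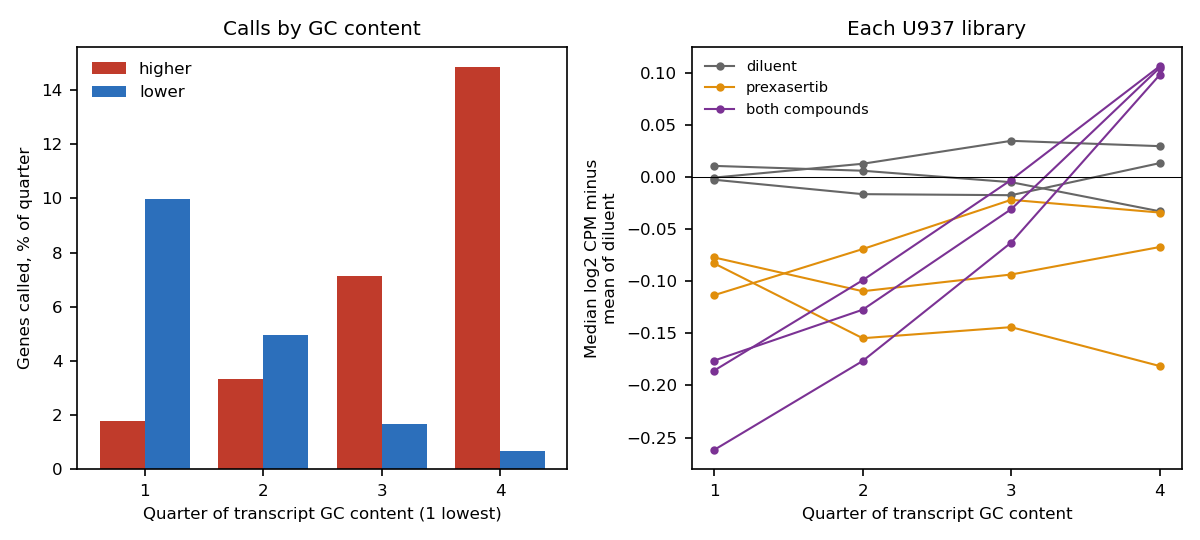
Left, the share of genes in each bin of transcript GC content called higher or lower with both compounds against diluent. Right, for each of the 9 U937 libraries, the median log2 CPM of each bin minus the mean of the diluent libraries, over genes of at least 1 CPM with diluent: the 3 libraries with both compounds rise from the lowest to the highest bin and the other 6 stay nearly level.

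Other gene properties moved with the calls too. Genes called higher had a median length of 18.5 kb, those called lower 50.7 kb and all tested genes 27.4 kb. By chromosome, 11.4% of tested genes on chromosome 19 and 11.2% on chromosome 16 were higher, and 1.30% and 2.43% were lower, whereas on chromosomes 13 and 4 the shares were 2.95% and 4.47% higher and 7.87% and 7.57% lower. Among annotated classes, 6.80% of protein-coding genes were higher and 4.82% lower, 9.59% of antisense genes were higher and 0.218% lower, and 11.3% of transcribed unprocessed pseudogenes were higher. Antisense reads cannot be told apart from those of the partner gene, since the kit does not mark strand. These properties are related to one another and to GC content, and their separate parts were not tested.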

How the data were processed

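RNA was isolated with a column kit and libraries were made with a TruSeq v2 kit, per the labels. That kit does not mark strand. The deposited values are raw counts of reads for each gene symbol, which the authors made with TopHat2 2.0.14, Bowtie2 2.2.6 and featureCounts 1.4.6 on hg38, per the submitters' processing notes. Annotation and strand setting: not given in the sources used here. Groups came from the sample labels. Analysis used edgeR 4.0.16 under R 4.3.3. Genes passed filterByExpr (minimum count 10, total 15), scaling factors were TMM, and the 15 libraries entered a single robust quasi-likelihood model of 5 group means (median biological coefficient of variation 0.165, 10 residual degrees of freedom). The design is 3 libraries a group, and values after ± in log2 fold changes are SE. Samples in the same numbered replicate were checked for shared deviations. Combination against prexasertib gave correlations of 0.409, 0.370 and 0.384, so the numbers pair these groups. Combination against diluent gave 0.386, 0.268 and 0.0477, against -0.361 to 0.138 for libraries of unlike number. Replicates 1 and 2 of those groups thus deviated together, and for replicate 3 a pairing was not clear. The main model has no term for the replicate number.

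The gene lists (25) and the genes named were chosen with earlier results of these data known. Named by rule were up to 12 genes each way of the largest change with at least 5 CPM and no overlap, up to 10 each way that became changed, up to 5 each way that prexasertib alone changed, TNF, TNFRSF1A, CHEK1 and CDK2, and up to 4 called members of each list, plus those called against its direction. A gene that prexasertib alone changed had to be called the opposite way in the direct comparison. PIM1 was chosen after its values were seen. Some genes the rule covers are not reported here. Not every such gene is described. The GC offset was added after seeing the data. The other settings tried were DESeq2 1.42.0, other scalings, filters, fits and thresholds, a replicate block in the U937 libraries only and each library left out. Gene coordinates, GC content and exon overlaps came from GENCODE v29 (GRCh38) and promoters from RefSeq. The pipeline was tested on simulated data.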

Additional observations from a re-analysis of the deposited data

How the results depend on the processing

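In all alternatives tried, no called gene changed direction. The 8 counts are given in the order higher, lower, stayed higher, stayed lower, became higher, became lower, became higher and above prexasertib, and became lower and below prexasertib, which were 1186, 709, 457, 286, 694, 401, 525 and 215. Settings that moved a count by over 1.5 times follow, the cause not being tested in any. DESeq2 gave 1395 lower, 639 stayed lower, 704 became lower and 378 became lower and below prexasertib. Upper-quartile factors gave 236, 100, 130 and 74 for the same 4, a filter of at least 5 CPM in 3 libraries 273, 107, 160 and 97, and a fit to the U937 libraries only 218, 76, 139 and 76, the last 3 of which also stand for the groups compared only. A log2 fold change of at least 1 left 682, 14, 304, 1, 377, 13, 219 and 9, and an adjusted p under 0.01 left 449, 114, 121, 28, 328, 86, 233 and 31. The GC offset gave 764, 381, 143 stayed lower, 424, 220, 325 and 122. Leaving out 1 library at a time gave ranges of 425 to 1434, 179 to 1275, 146 to 515, 87 to 357, 231 to 1016, 87 to 940, 193 to 548 and 56 to 265. The replicate number was added as a block to the fit to the U937 libraries only, which without it gave 952 higher and 218 lower genes. With the block the counts were 2459, 1497, 1001, 693, 1264, 680, 995 and 392. Between diluent and combination, same-numbered libraries deviated together for replicates 1 and 2 (correlations of 0.386 and 0.268). Replicate 3 with both compounds correlated best with diluent replicate 2 (0.138), whereas diluent replicate 3 correlated best with replicate 3 with both compounds (0.0477). Of 118 named genes, 106 were called and 41 were called in every alternative that left thresholds and GC content untouched. Depth is 49011222 to 81764532 reads a library in the groups compared.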
